A study of Arabidopsis thaliana with 6 samples.

Results

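The YODA cascade is a chain of mitogen-activated protein (MAP) kinases of Arabidopsis thaliana, described here through 7 genes: the MAP kinase kinase kinase YDA (YODA, AT1G63700), the MAP kinase kinases MKK4 (AT1G51660), MKK5 (AT3G21220), MKK7 (AT1G18350) and MKK9 (AT1G73500), and the MAP kinases MPK3 (AT3G45640) and MPK6 (AT2G43790). They were chosen by locus from a deposited table of 33511 gene rows, and each matched 1 row, under the older names EMB71 for YDA, ATMEK4 for MKK4, ATMEK5 for MKK5, ATMKK7 for MKK7, ATMPK3 for MPK3 and ATMAPK6 for MPK6, while MKK9 stood under that name. The RNA came from whole seedlings of the Col-0 accession, aged 4 days, that carried a MUTE cDNA in the vector pER8. MUTE encodes a basic helix-loop-helix transcription factor of the stomatal lineage, and the title of the study speaks of its direct role when cells change state and divide symmetrically to form stomata. In pER8 a hybrid transcription factor that estradiol activates is made from a constitutive promoter, so induction is not limited to that lineage. Per the labels' protocols, 40 to 50 seedlings were pooled for each replicate and kept for 8 h in liquid medium with 10 µM estradiol (estradiol group) or with the solvent DMSO (mock group), with 3 libraries in each group. The construct was in both groups, so MUTE induction and any other effect of estradiol or of the activator cannot be told apart. The labels do not say how many independent transformed lines were used, nor whether replicates were treated separately beyond being different pools, so p-values measure the spread between these pools.

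In this pathway secreted peptides of the EPF family bind receptor kinases of the ERECTA family and the receptor-like protein TMM on epidermal cells, and the signal passes through YDA to MAP kinase kinases, which phosphorylate MPK3 and MPK6. In young lineage cells the active MAP kinases phosphorylate the transcription factor SPEECHLESS (SPCH), which is then degraded, so that fewer stomata are made. YDA is also needed for the asymmetric division of the zygote, and MPK3 and MPK6 act in immunity, wounding and ethylene synthesis as well. The cascade works by phosphorylation, which RNA levels do not report.

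MPK3 and MPK6 are switched on when MKKs phosphorylate a threonine and a tyrosine that flank a glutamate in the activation loop. The codons of these residues are shown because they are where the MKK tier meets the MPK tier, and because they show how alike the transcripts of MPK3 and MPK6 are. The stretches are from RefSeq's annotation of assembly TAIR10.1, plus strand, at chr3:16757760-16757798 for MPK3, where the threonine is codon 196, and chr2:18139883-18139921 for MPK6, where it is codon 221. Both lie within 1 exon, and the capitals mark the 3 codons.
MPK3: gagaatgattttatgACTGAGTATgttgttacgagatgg
MPK6: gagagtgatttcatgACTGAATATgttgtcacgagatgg
Of the 39 bases shown, 35 were identical between MPK3 and MPK6. Over the whole coding sequences 70.9% of 1109 aligned bases were identical between MPK3 and MPK6, 82.1% of 1047 between MKK4 and MKK5 and 79.4% of 924 between MKK7 and MKK9. No stretch of 50 bases, the length of the reads, in any of the 7 transcripts occurred at a second place in the nuclear chromosomes. Reads of such a length that match a member without mismatch thus match no second place there. The search cannot separate a member from a gene that overlaps it at the same place.

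On that assembly YDA lies at chr1:23624627-23630073 on the minus strand with 12 exons, and MKK4 at chr1:19154323-19156338 on the plus strand in a single exon. MKK5 lies at chr3:7445604-7448498 on the plus strand with 2 exons, MKK7 at chr1:6315636-6316738 on the plus strand and MKK9 at chr1:27639091-27640643 on the minus strand, both without an intron. MPK3 lies at chr3:16756571-16758874 and MPK6 at chr2:18138246-18140988, both on the plus strand with 6 exons. The annotated end of MKK4 overlaps its neighbour AT1G51670 on the same strand. On the opposite strand MKK5, MKK7 and MPK3 each overlap 1 gene and MPK6 overlaps 2. The libraries were stranded per the labels' protocols, but whether the quantification used the strand is not given in the sources used here. Values of MKK5, MKK7, MPK3 and MPK6 carry that uncertainty. For MKK4 the strand would not separate the overlapping genes, so its value carries an uncertainty either way.

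The values are FPKM, fragment numbers scaled by the authors for transcript length and library size, which allows levels of different genes to be set side by side. MUTE stood at 1.89 to 3.31 FPKM in the mock and 2946 to 3049 FPKM in the estradiol libraries, so the labels held for the induced gene. FPKM totals ran from 461556 to 469530 per library and say nothing about depth. More rows were listed at 0 in estradiol 1 (9514) and estradiol 3 (9182) than elsewhere, where 8559 to 8679 were. The seedling markers were present, with RBCS1A and CAB1 of leaf mesophyll summing to 10179 to 11627 FPKM per library and 3 root genes to 36.5 to 42.1 FPKM, while 3 flower genes summed to at most 0.37 FPKM. Of the other markers the epidermal gene PDF1 rose by 0.98 (log2) while ATML1, at 10.2 to 10.7 FPKM, did not pass. The root hair genes EXPA7 and COBL9 fell by 0.40 and 0.28 on the log2 scale. The remaining root gene, SCR, did not pass, with a fitted value of 0.0975 on that scale (limma adjusted p 0.148). Of 3 guard cell genes 0 passed in limma, while 1, HT1, had an unadjusted p under 0.05. The part of these markers in the values below was not tested. Genes were tested where at least 3 of the 6 libraries reached 1 FPKM, which left 19134, with limma on log2(FPKM + 1) and Benjamini-Hochberg adjustment over all of them, and a gene was called at an adjusted p under 0.05. Fold changes are on this log2(FPKM + 1) scale, which understates changes of low genes. In whole seedlings, fewer cells of a type and less RNA per cell cannot be told apart.

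With MUTE induced, a gene of each tier of the cascade rose by a small amount: YDA by 12.5%, MKK5 by 17.4% and MPK6 by 19.6% in mean FPKM. MKK4 and MKK9 did not pass the test, MKK7 was close to undetected in both groups, and MPK3 had a lower mean with estradiol without passing the test. Of the 7 genes 6 could be tested and 3 were called, all higher. Of all genes tested 36.2% were called, 23.3% higher and 12.9% lower. The fitted value was higher with estradiol for 5 of the 6, against 61.8% of all genes. The median log2 fold change was 0.15 over the 6 tested members and 0.05 over all 19134 genes. A count of 3 of 6 near a background of 36.2% is not by itself a result about the cascade. The groups did not overlap for 3 of the 6, against 51% of all genes tested. Of all calls 4454 were higher and 2474 lower, a split that became 3084 and 3354 after median-of-ratios scaling of the libraries, while YDA, MKK5 and MPK6 stayed called and higher under it, by 0.109, 0.168 and 0.197 on the log2 scale. The median size of the log2 fold change, regardless of direction, was 0.12 over all genes tested and 0.109 after that scaling. After it YDA thus moved no more than the middle gene.

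**Figure D1:**
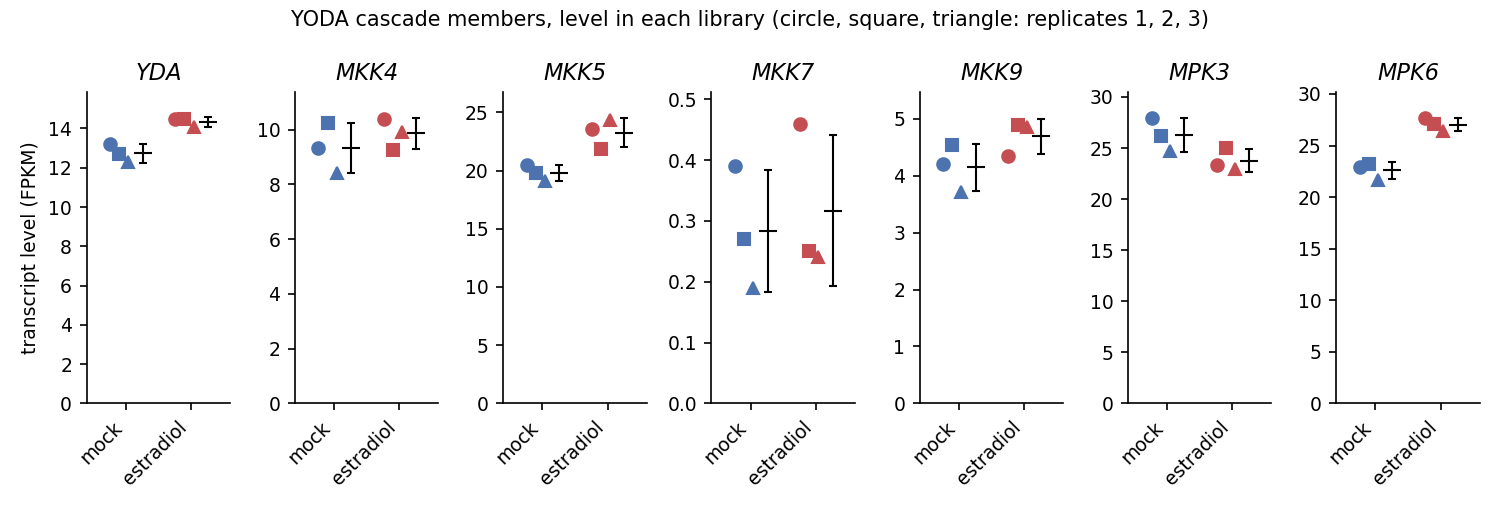
Level of each cascade member in FPKM (vertical axes, each starting at 0 with its own range) in the 3 mock (blue) and 3 estradiol (red) libraries, with the group mean and SD as black bars. The groups do not overlap for YDA, MKK5 and MPK6, whereas they overlap for MKK4, MKK7, MKK9 and MPK3.

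YDA, the kinase at the head of the cascade, was at 13.23, 12.70 and 12.28 FPKM in mock libraries 1, 2 and 3 and at 14.48, 14.46 and 14.06 FPKM in estradiol libraries 1, 2 and 3. Every estradiol library lay above every mock library. The group means were 12.7 ± 0.476 and 14.3 ± 0.237 FPKM (SD, n = 3), and the log2 fold change was 0.16 (SE 0.0397, 95% interval 0.07 to 0.25, limma adjusted p 0.0160). The call rested on a narrow margin, since without mock 2 the adjusted p was 0.0504 at nearly the same size, 0.157.

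Of the pair of MKKs known to relay the YDA signal and to restrain stomatal development, MKK5 was the higher. Its levels were 20.51, 19.82 and 19.08 FPKM in mock and 23.55, 21.88 and 24.31 FPKM in estradiol libraries, and the groups did not overlap. The mean went from 19.8 ± 0.715 to 23.3 ± 1.24 FPKM (SD, n = 3), which is 0.22 on the fitted log2 scale (SE 0.0476, 95% interval 0.11 to 0.33, limma adjusted p 0.00882). MKK4, which acts redundantly with MKK5, was at 9.34, 10.26 and 8.43 FPKM in mock and at 10.40, 9.27 and 9.93 FPKM in estradiol libraries. Those groups overlapped, and the log2 fold change of 0.07 had a 95% interval from -0.09 to 0.23 (limma adjusted p 0.443), which includes the value found for MKK5.

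The level of MKK4 relative to MKK5 was compared within each library, where any scaling factor of the library cancels apart from the pseudocount. MKK4 made up 31.3%, 34.1% and 30.6% of the summed FPKM of MKK4 and MKK5 in mock libraries and 30.6%, 29.8% and 29.0% in estradiol libraries. The log2 ratio was -1.01 ± 0.109 in mock and -1.16 ± 0.0524 in estradiol libraries (SD, n = 3), and a two-sided exact permutation test gave p = 0.1, the smallest that 3 against 3 libraries allow, and 0.15 after adjustment over the 3 ratios compared. The difference of -0.15 is therefore not past a threshold of 0.05 in a design that could not have reached it. The summed level of MKK4 and MKK5 was 27.5 to 30.1 FPKM in mock and 31.2 to 34.2 FPKM in estradiol libraries.

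MKK9 and MKK7 are close relatives that act in stress, auxin and ethylene responses, and that in stomatal development have been tied to the later steps after the first asymmetric divisions. MKK9 was at 4.20, 4.53 and 3.71 FPKM in mock and at 4.34, 4.89 and 4.85 FPKM in estradiol libraries. The lowest estradiol value lay inside the mock range, and the log2 fold change was 0.15 with a 95% interval from -0.02 to 0.31 (SE 0.0711, limma adjusted p 0.141). MKK7 was at 0.39, 0.27 and 0.19 FPKM in mock and at 0.46, 0.25 and 0.24 FPKM in estradiol libraries, below the minimum of 1 FPKM in all 6, and was not tested. Fitted without that filter over 26727 genes, its log2 fold change was 0.04 (SE 0.0824, limma adjusted p 0.804). The pseudocount of 1 compresses changes at such levels, so a small change of MKK7 would not be visible on this scale. The FPKM of MKK9 divided by that of MKK7 was 10.8, 16.8 and 19.5 in mock and 9.44, 19.6 and 20.2 in estradiol libraries, so the groups overlapped. These ratios rest on the low values of MKK7. The ratio as tested was the log2 ratio of FPKM + 1, in which the added 1 is larger than MKK7 itself and lowers the ratio. It was 2.004 ± 0.111 in mock and 2.12 ± 0.212 in estradiol libraries (SD, n = 3) and did not differ past the threshold (two-sided exact permutation test, p = 0.5, also 0.5 after adjustment).

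At the end of the cascade MPK6, a MAP kinase with roles from embryo to flower, had the highest fitted log2 fold change of the members, though its 95% interval overlapped that of MKK5, and without estradiol 2 MKK5 was the higher, at 0.261 against 0.248. MPK6 was at 22.95, 23.18 and 21.63 FPKM in mock and at 27.64, 27.05 and 26.38 FPKM in estradiol libraries. The gap between the groups exceeded the range within either of them. The mean went from 22.6 ± 0.836 to 27.02 ± 0.630 FPKM (SD, n = 3), and the log2 fold change was 0.25 (SE 0.0389, 95% interval 0.16 to 0.34, limma adjusted p 0.00207).

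MPK3, whose transcript is known to respond to stress and elicitors and which overlaps with MPK6 in function, went the other way in its mean. It was at 27.96, 26.16 and 24.67 FPKM in mock and at 23.30, 25.02 and 22.90 FPKM in estradiol libraries. Estradiol 2 lay above mock 3, so the groups overlapped. The log2 fold change of -0.14 (SE 0.0534, 95% interval -0.26 to -0.02) had an unadjusted p of 0.0308 and a limma adjusted p of 0.0741, which did not pass. It did pass after quantile normalization (-0.164, adjusted p 0.0338), under median-of-ratios size factors (-0.192, adjusted p 0.0143), without mock 3 (-0.182, adjusted p 0.0412) and without estradiol 2 (-0.176, adjusted p 0.0493), and the fitted value was below 0 under each alternative.

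The order of MPK3 and MPK6 in FPKM was reversed between the groups. Which gene is the higher depends on the transcript lengths used for the FPKM, which are not given. The change of their ratio between the groups does not depend on those lengths. MPK3 was the higher of the pair in each mock library and the lower in each estradiol library: its level divided by that of MPK6 was 1.22, 1.13 and 1.14 in mock and 0.843, 0.925 and 0.868 in estradiol libraries. MPK3 therefore made up 53.7% ± 1.03 of their summed FPKM in mock and 46.8% ± 1.18 in estradiol libraries (SD, n = 3). On the log2 scale the ratio went from 0.21 ± 0.0578 to -0.18 ± 0.0658 (SD, n = 3), a difference of -0.39. The two-sided exact permutation test gave p = 0.1, the smallest possible, and 0.15 after adjustment over the 3 ratios. The sum of MPK3 and MPK6 overlapped between the groups, at 46.3 to 50.9 FPKM in mock and 49.3 to 52.1 FPKM in estradiol libraries.

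**Figure D2:**
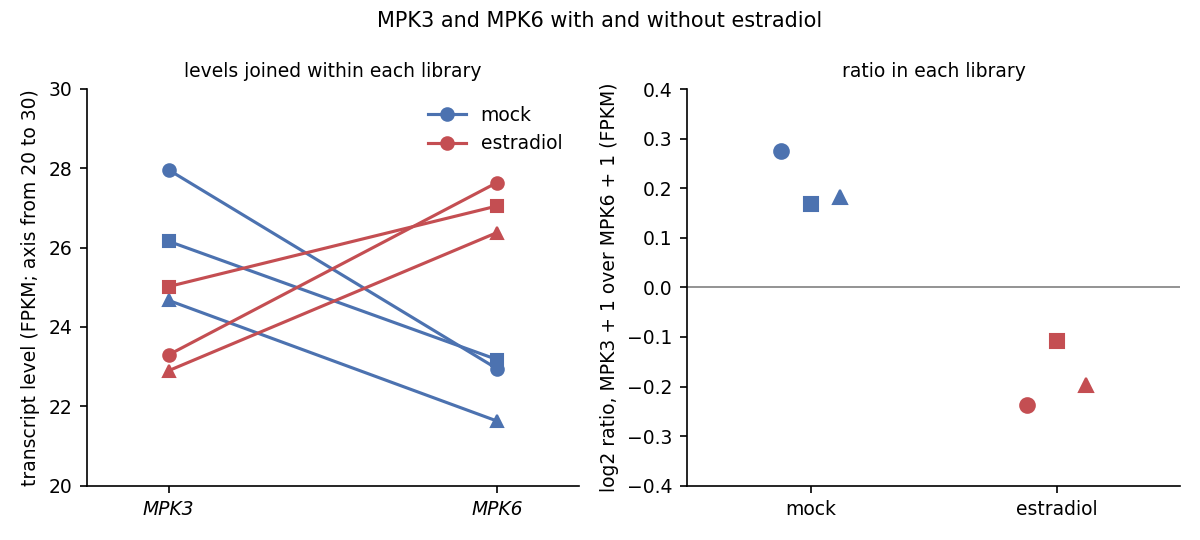
Left, FPKM of MPK3 and MPK6 joined by a line for each mock (blue) and estradiol (red) library, on an axis from 20 to 30 FPKM; right, log2 ratio of (FPKM + 1) of MPK3 over MPK6 in each library, with circles, squares and triangles for replicates 1, 2 and 3. All mock lines fall from MPK3 to MPK6 and all estradiol lines climb, and the ratio is between 0.17 and 0.27 in mock and between -0.24 and -0.11 in estradiol libraries.

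The sequence before 3 of these genes is shown because MKK5 and MPK6 rose together while MPK3 did not, and because basic helix-loop-helix factors such as MUTE are known to bind E-boxes, and WRKY factors of the stress response to bind W-boxes. The stretches are the 250 bases before the gene start annotated by RefSeq on TAIR10.1, plus strand, at chr3:7445354-7445603 for MKK5, chr2:18137996-18138245 for MPK6 and chr3:16756321-16756570 for MPK3. The capitals mark each E-box, CANNTG, which reads as the same motif on both strands, and each W-box core, TTGAC, which appears as GTCAA where it lies on the other strand.
MKK5: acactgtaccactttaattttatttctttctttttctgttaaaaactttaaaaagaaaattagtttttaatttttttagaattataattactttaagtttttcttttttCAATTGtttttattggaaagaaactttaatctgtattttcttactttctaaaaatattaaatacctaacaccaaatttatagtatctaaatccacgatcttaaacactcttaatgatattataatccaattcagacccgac
MPK6: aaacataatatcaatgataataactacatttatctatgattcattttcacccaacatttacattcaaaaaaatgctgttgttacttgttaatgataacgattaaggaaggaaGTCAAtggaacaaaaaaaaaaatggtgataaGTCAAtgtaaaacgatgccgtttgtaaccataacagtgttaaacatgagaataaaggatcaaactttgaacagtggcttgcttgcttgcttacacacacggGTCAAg
MPK3: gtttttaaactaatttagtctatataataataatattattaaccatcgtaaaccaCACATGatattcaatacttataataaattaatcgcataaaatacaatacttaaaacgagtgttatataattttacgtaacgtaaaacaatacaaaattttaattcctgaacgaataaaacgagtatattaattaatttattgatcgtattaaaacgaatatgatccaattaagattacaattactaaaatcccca
MKK5 held an E-box that begins 141 bases before the start and MPK3 held an E-box that begins 195 bases before it, while MPK6 held 3 W-box cores and no E-box. YDA, which like MKK5 has 2 annotated transcripts, held neither motif in the window before its annotated gene start. Across the members 3 of 7 windows held an E-box (MKK4, MKK5 and MPK3) and 1 of 7 a W-box core. Of 27443 protein-coding genes with a window of the same length, 55.3% held an E-box and 44.9% a W-box core on either strand. A match of these letters is a description of the window and not a binding site.

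Within their families YDA, MKK4, MKK5, MPK3 and MPK6 were among the genes with the highest levels in FPKM. Of 18 MAPKKK genes examined YDA was the highest in both groups, followed by its relative MAPKKK5, which acts in immunity, at 10.3 ± 0.760 and 12.7 ± 0.542 FPKM (SD, n = 3), and the ranges of these neighbours did not overlap in either group. MKK5 was the highest and MKK4 the next highest of the 10 MKK genes in both groups. MKK4 did not lie apart from the third, MKK2, in the estradiol libraries, where their ranges were 9.27 to 10.40 and 9.24 to 9.89 FPKM. Of the 20 MPK genes MPK20 and MPK4 were the highest in both groups. In mock libraries MPK18, MPK3, MPK6 and MPK16 came next, with means of 27.8, 26.3, 22.6 and 20.9 FPKM, and in estradiol libraries the order was MPK6, MPK18, MPK3 and MPK16, with 27.02, 26.0, 23.7 and 23.1 FPKM. The ranges of MPK3 and MPK18 overlapped in mock libraries, as did those of MPK6 and MPK18 and of MPK3 and MPK16 in estradiol libraries.

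The other kinases of the families changed in both directions. Of 17 other MAPKKK genes 13 were tested, 5 were called higher and 1 lower, against 23.3% and 12.9% of all genes tested, with a median log2 fold change of 0.13. MAPKKK5 rose by 0.28 (SE 0.0568, limma adjusted p 0.00723). ANP3 and ANP2, which act in cytokinesis, rose by 0.45 and 0.36, MAPKKK15 rose by 0.29 and MAP3KE1 by 0.13. MAPKKK14, of a MAPKKK subgroup known to act with MKK3, fell from a mean of 8.99 ± 0.426 FPKM in mock to 5.50 ± 0.324 FPKM in estradiol libraries (SD, n = 3), with -0.62 as its log2 fold change (SE 0.0541) and 0.000134 as its limma adjusted p. MEKK1, MEKK2 and MEKK3, neighbours in the genome with roles in immunity, did not pass, with log2 fold changes of 0.04, -0.02 and 0.01.

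Of the 6 other MKK genes 4 were tested and 2 were called, both higher, against 36.2% of all genes called and 23.3% called higher. MKK6, the MKK of cytokinesis, rose by 0.36 (from 4.48 ± 0.224 to 6.05 ± 0.372 FPKM, SD, n = 3; limma adjusted p 0.00197) and MKK2, known from cold and salt signalling, by 0.22. MKK1 and MKK3 did not pass, at 0.05 and 0.03, and MKK8 and MKK10 were at 0.09 FPKM or less in every library. Of the 18 other MPK genes 15 were tested, 4 were called higher and 1 lower, a share near the 36.2% called of all genes, with a median of 0.04. The direction of these calls depended on the scaling, with 1 higher and 3 lower under median-of-ratios size factors and 3 higher and 3 lower after quantile normalization. MPK4, which acts in immunity and cytokinesis, rose by 0.22 from 32.1 ± 1.33 to 37.4 ± 1.01 FPKM (SD, n = 3; limma adjusted p 0.00467). MPK7, MPK20 and MPK16 rose by 0.17, 0.15 and 0.14, and MPK15 fell by 0.13 on the log2 scale. The count of 5 in this list was 1 without estradiol 1 and 2 without mock 2 or without mock 3. MPK12, known from guard cells, was at 2.67 ± 0.295 and 2.64 ± 0.209 FPKM in mock and estradiol libraries (SD, n = 3), which differ by -0.01 on the fitted log2 scale.

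**Figure D3:**
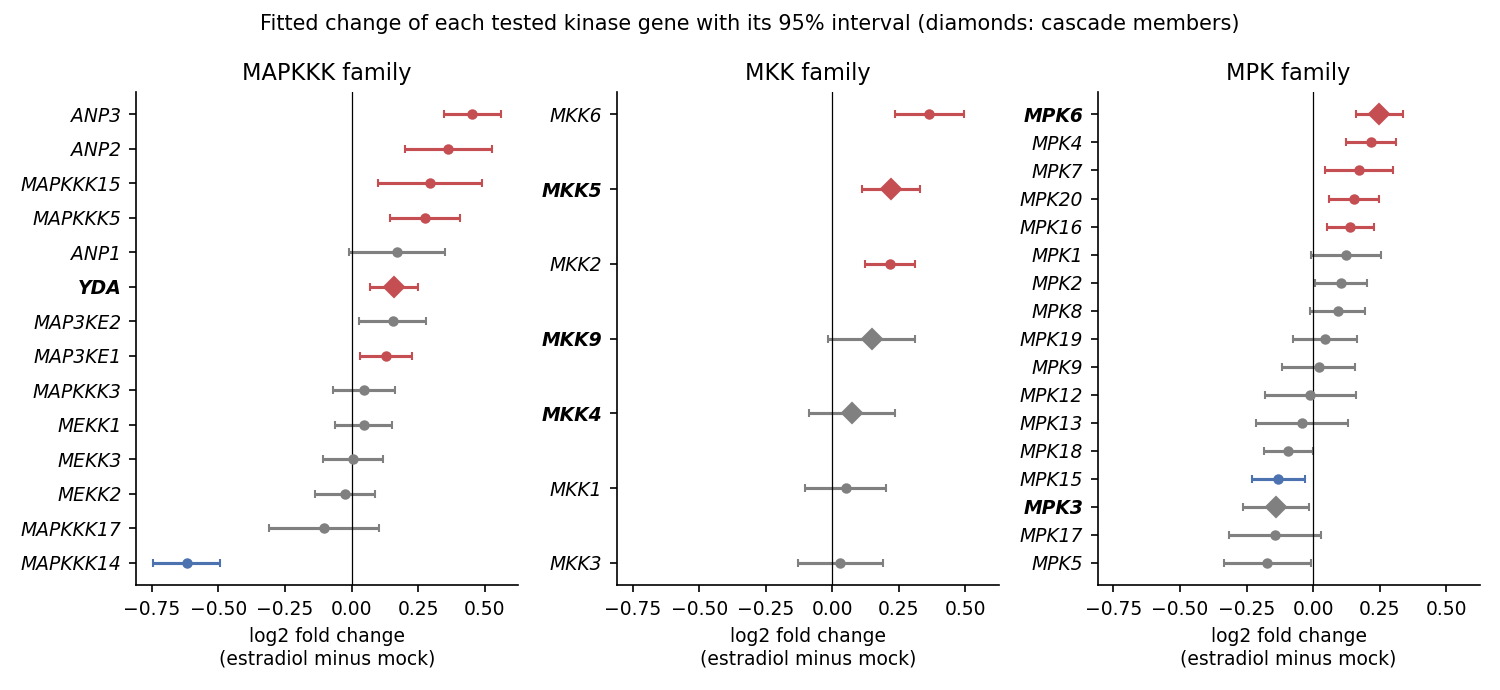
Fitted log2 fold change (horizontal axis, estradiol minus mock, log2(FPKM + 1) scale) with its 95% interval for each tested MAPKKK, MKK and MPK gene, red where called higher, blue where called lower and grey where not called; cascade members are diamonds. MPK6 is at 0.25, its interval overlapping that of MPK4 at 0.22, MPK3 is on the other side of 0 at -0.14, and MAPKKK14 is the lowest kinase at -0.62.

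Around the cascade, the changes of other genes of the pathway exceeded those of the kinases in several cases. Of 14 ligand and receptor genes 11 were tested, 5 were called higher and 2 lower, against 23.3% and 12.9% of all genes tested. TMM (listed as AtRLP17) went from 10.13 to 50.05 FPKM, ERL1 from 0.743 to 3.28 and ERL2 from 4.70 to 8.47 FPKM, while the receptor ER was at 18.5 and 18.8 FPKM. ERL1 was below 1 FPKM in every mock library and met the filter only through its estradiol libraries. The co-receptor genes SERK2 and BAK1 rose by 0.26 and 0.15. The peptide genes EPFL9 and EPF2 fell by 0.75 and 0.44 on the log2 scale.

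Of 11 genes for regulators and scaffolds of YDA 9 were tested and 3 were called, all higher. That share was near the 36.2% called of all genes, and the median log2 fold change was 0.13. BASL, the polarity protein that binds YDA at the cell cortex, went from 0.833 ± 0.126 to 1.86 ± 0.395 FPKM (SD, n = 3; 0.63, limma adjusted p 0.00308). BASL was below 1 FPKM in every mock library and met the filter only through its estradiol libraries. The phosphatase gene BSL1 and the receptor-like cytoplasmic kinase gene BSK2 rose by 0.13 and 0.12, and the count of 3 was 1 without mock 1, without mock 3, without estradiol 2 and with median-of-ratios size factors. BIN2, the kinase that inhibits YDA in brassinosteroid signalling, was at 32.1 ± 1.37 and 33.6 ± 0.445 FPKM (SD, n = 3) and did not pass (limma adjusted p 0.218), and BSK1, at 27.4 and 27.1 FPKM, did not either (0.794). SSP, known from pollen as the activator of YDA in the zygote, was listed at 0 in all 6 libraries.

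Of 9 genes for phosphatases that act on MAP kinases 8 had a row and 5 were tested, of which 3 rose, against 23.3% of all genes called higher, and 2 under either other scaling. They were MKP2 by 0.29 (SE 0.0465, limma adjusted p 0.00227), the tyrosine phosphatase gene PTP1 by 0.20 and AP2C1 by 0.15. MKP2 and PTP1 encode enzymes that dephosphorylate MPK3 and MPK6. On the assembly used here MKP2 ends 1379 bases before the start of the endogenous MUTE gene on the same strand. MKP1 (0.07) and IBR5 (0.09) did not pass.

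Of 10 genes that encode substrates of MPK3 and MPK6, 9 were tested and 7 were called, all higher, against the background of 23.3%, with a median of 0.27. After quantile normalization 6 were called, with median-of-ratios size factors 5, and with each library left out in turn 5 to 8. SCRM, which pairs with SPCH and with MUTE and carries the docking site for the MAP kinases, rose by 1.03 from 9.04 ± 0.437 to 19.5 ± 0.183 FPKM (SD, n = 3; limma adjusted p 4.64e-06). SPCH itself was at 5.11 ± 0.603 and 6.05 ± 0.702 FPKM and did not pass (limma adjusted p 0.115). The ethylene synthesis gene ACS6 rose by 0.52, WRKY33 by 0.44, ERF6 by 0.38, ERF104 by 0.27, PHOS32 by 0.20 and the microtubule bundling gene MAP65-1 by 0.15.

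ACS6, WRKY33, ERF6 and ERF104 are also genes that stress induces, and estradiol 2 had the highest value in each, with 8.04 FPKM of WRKY33 against 5.50 in estradiol 1 and 7.28 in estradiol 3 and 4.69 to 4.89 in mock libraries. A list of 10 genes of the early wound and immune response had 9 tested, 2 called higher (WRKY40 by 0.32 and ZAT10 by 0.31) and 1 lower. The lower gene was PHI-1, listed as EXL1, which fell by 0.25 on the log2 scale. These 3 calls were a share near the 36.2% called of all genes. The summed level of the list was 33.5 to 37.2 FPKM in mock and 31.4 to 42.0 FPKM in estradiol libraries. FRK1 was at 0.48 FPKM or less in every library. The count of 3 was 1 without estradiol 2 and without mock 3. It was 0 higher and 1 lower with median-of-ratios size factors, and 1 higher and 1 lower after quantile normalization. The part of this response in the levels of MPK3, MKK9 and the substrate genes was not tested.

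**Figure D4:**
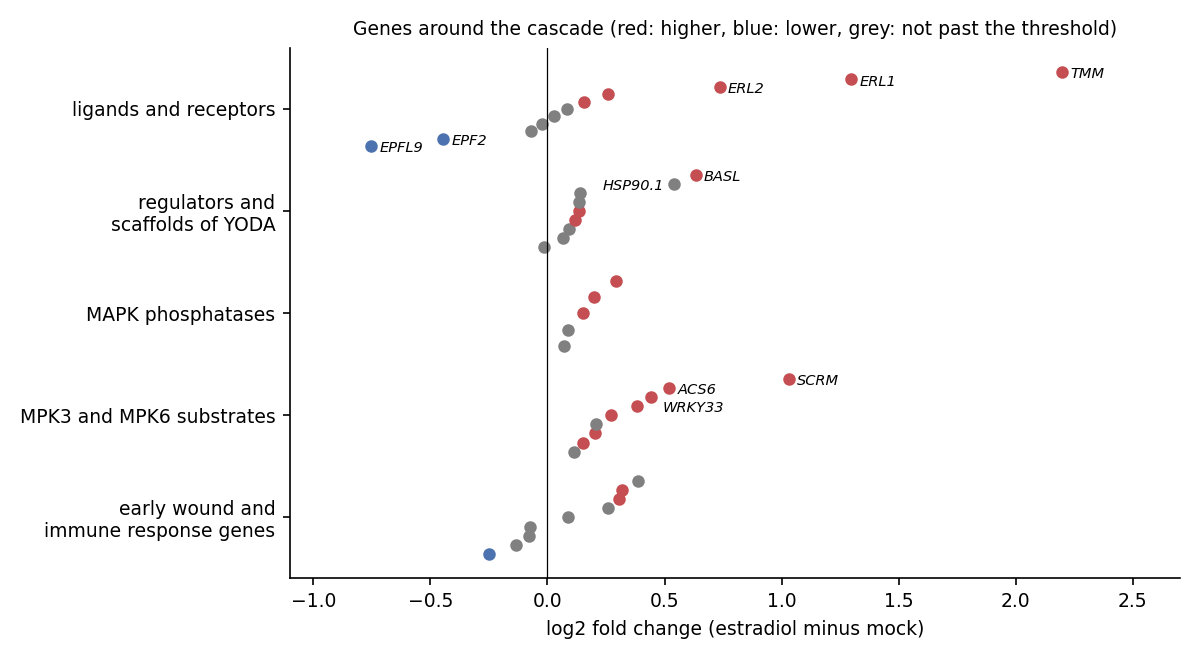
Fitted log2 fold change (horizontal axis, log2(FPKM + 1) scale) of each tested gene in 5 lists around the cascade, red where called higher, blue where called lower and grey where not called; genes beyond 0.4 in size are named. TMM at 2.20 is the highest, SCRM at 1.03 leads the substrate list, and EPFL9 at -0.75 is the lowest.

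These 8 lists were chosen with earlier results of these data known, so their counts are no independent test. Across them 75 of 94 genes with a row were tested, 31 were called higher and 5 lower, against 23.3% and 12.9% of all genes tested. The higher calls include ERL1, BASL and MAPKKK15, which were tested only because their estradiol libraries met the filter. The split of 31 and 5 depended on the scaling of the libraries. It was 19 and 7 with median-of-ratios size factors and 24 and 7 after quantile normalization. The median log2 fold change was 0.13, against 0.05 over all genes. Under either of these scalings all 36 calls kept their sign and 24 passed under both. The call was lost under at least 1 of them for BAK1, BSK2, BSL1, MAP3KE1, MPK7, MPK16, MPK20, AP2C1, ERF6, MAP65-1, WRKY40 and ZAT10. The genes whose values over the 6 libraries were closest to those of YDA, by the root mean square distance of centred log2(FPKM + 1) values, were SPK1, AT5G16300 and AT2G04380, at 0.0067, 0.0084 and 0.0087. SPK1 went from 12.5 to 14.0 FPKM, and the median distance over all tested genes was 0.0976. Closest to MPK6 were AT4G24290, MCCB and ATRAB-F2A, at 0.00785, 0.00796 and 0.00824, against a median of 0.128. With 6 libraries in 2 groups such closeness mainly reflects a group difference of the same size.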

How the data were processed

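Messenger RNA of 6 pools of whole seedlings, 3 mock and 3 estradiol by sample title, was read in pairs of 50 bases from stranded libraries. The authors deposited FPKM values, 1 row per gene name with 2 decimals. Per the submitters' processing notes TopHat2 2.0.13 and DESeq2 and build TAIR10 were used, with no roles named. The quantifier, annotation and any further scaling are not given in the sources used here. No column is named as counts, so absolute depth is unknown and no counting intervals are given. 1 column whose heading names no sample was not used.

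Row names were paired with loci through RefSeq's annotation of TAIR10.1, whose nuclear chromosome records are those of TAIR10. 96.8% of rows matched 1 locus, and a name shared by several loci was given to the only locus without a row of its own. Of 117 listed genes 115 matched; PHS1 and LHCB2.1 did not. The members and lists were chosen with earlier results of these data known. limma 3.58.1 in R 4.3.3 (lmFit, eBayes with trend, two-sided, group as the only term) was applied to log2(FPKM + 1) of genes with at least 1 FPKM in at least 3 libraries, and was checked on simulated data. Ratios were compared with exact permutation tests in scipy 1.17.1. Alternatives were a pseudocount of 0.1, no filter or a filter at 5 FPKM, quantile normalization, median-of-ratios size factors, eBayes without a trend, leaving out each library, and the replicate number as a block. Named in each list were up to 6 called genes with the largest change and up to 3 others with the highest level. EPF1, BAK1, MAP65-1, MKK8, MKK10, MPK12, SSP and FRK1 were named after their values were seen.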

Additional observations from a re-analysis of the deposited data

How the results depend on the processing

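Across 13 alternatives MKK5 and MPK6 stayed called and higher, by 0.168 to 0.261 and 0.197 to 0.267 (log2), with adjusted p up to 0.0327 and 0.00831. YDA lost the call only without mock 2 (0.157, adjusted p 0.0504); leaving out each library in turn gave 0.135 to 0.185. MPK3 gained a call under quantile normalization (-0.164) and under median-of-ratios scaling (-0.192), and leaving out each library in turn gave -0.182 to -0.095, called without mock 3 or estradiol 2; the cause was not tested. MKK4 (0.009 to 0.137) and MKK9 (0.085 to 0.201) were called under none of the alternatives in which they were tested. Called members numbered 2 to 4. Genes past the threshold over the table numbered 5337 to 6911, and those of the pathway lists 24 to 36 against 36. The MPK3 over MPK6 ratio differed by -0.424 to -0.355 and kept its sign, as did the other 2 ratios; fewer libraries cannot pass in these tests.

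No pairing by replicate number was visible, since the deviations of libraries of the same number from their means correlated at -0.0064, 0.047 and -0.002. Whether pools of the same number were handled together is not settled by these values. A replicate block in the fit left 6038 genes and 3 members past the threshold, with adjusted p of 0.0289 for YDA, 0.0222 for MKK5, 0.00621 for MPK6 and 0.0775 for MPK3. The ratios tested as differences between same-numbered libraries gave exact p-values of 0.25, 0.5 and 0.25 for MKK4 over MKK5, MKK9 over MKK7 and MPK3 over MPK6, where 0.25 is the smallest possible. MKK7, at 0.46 FPKM or less, is the member whose low level limits it most. The effect of the higher number of rows at 0 in estradiol 1 and 3 was seen only through the fits that left each out.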

Other observations

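ANP2, ANP3, MKK6 and MPK4, which are known as successive tiers of a separate MAP kinase module that acts in cytokinesis, were each called higher, by 0.36, 0.45, 0.36 and 0.22 on the log2 scale (limma adjusted p 0.00543, 0.000298, 0.00197 and 0.00467). Of all genes tested 23.3% were called higher. ANP2, ANP3, MKK6 and MPK4 kept the call under both other scalings. ANP1, which belongs to the same tier as ANP2 and ANP3, was at 2.37 ± 0.153 and 2.80 ± 0.365 FPKM (SD, n = 3) and did not pass (0.17). The grouping was made after the values were seen, so no test was made on it.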
